A study of Salmo salar with 54 samples.

Results

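Primary hepatocytes of Atlantic salmon (Salmo salar) exposed to 3 µM arsenite were compared directly with hepatocytes of the same fish exposed to 1 µM, to show which responses the step in concentration added, extended, removed or reversed. The comparison used the 6 libraries labelled as 3 µM arsenite at 48 h and the 6 labelled as 1 µM arsenite at 48 h, 12 of the 54 libraries of the series, taken by their titles and paired by fish. Liver cells were isolated from 6 male fish by perfusion with collagenase, seeded on laminin-coated porous scaffolds and kept in culture before exposure. Cells of each fish went to every concentration, so each group held 1 library per fish (n = 6 fish). Arsenite (AsIII, inorganic trivalent arsenic) was diluted into serum-containing L-15 medium. The 6 arsenite controls of the same fish, cultured on the arsenite plates, gave the starting level, and the 6 libraries at 0.1 µM entered the fit for the shared spread alone. The labels and files do not say what the controls received in place of the arsenite stock, nor the age of the fish. The model is liver cells in isolation for 48 h, with no other organ present.

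Arsenite binds sulfhydryl groups of proteins. Cells answer damaged proteins with chaperones and ubiquitin (the heat shock response), with the unfolded protein response of the endoplasmic reticulum (ER), and with glutathione synthesis and detoxification genes driven by the transcription factor NRF2. Liver is also the main site of arsenic methylation, and hepatocytes secrete most plasma proteins.

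Gene expression was read as the authors' normalised reads, which are gene read counts divided by 1 size factor per library. Reads per library ran from 9.86 to 17.7 M at 1 µM and from 9.70 to 14.9 M at 3 µM. Changes are differences in log2(value + 1) ± standard error from limma, with fish as a block, and a gene was called at a Benjamini-Hochberg adjusted p below 0.05. On the first principal component of the 24 arsenite libraries (60.5% of the variance), the controls lay between -62.0 and -54.3, the 1 µM libraries between 17.6 and 40.1 and the 3 µM libraries between 83.8 and 94.8. The library of fish 1 at 0.1 µM stood apart on the third component. It is in neither group compared, but it widened the shared spread: without it 11533 genes were called, among them all 9859 called with it. Salmon carry many duplicated genes, so each symbol stands for 1 copy, and the sources at hand do not state how reads shared by near-identical copies were counted.

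The step changed 9859 of 18899 genes tested (52.2%). Of these, 5247 were higher (27.8% of those tested) and 4612 lower (24.4%) at 3 µM. The typical called gene moved little, with a median absolute change of 0.64, but 165 genes rose and 57 fell by at least 4-fold. At least 2-fold changes were called for 2157 genes (11.4%), 1375 higher (7.28%) and 782 lower (4.14%). For 6011 genes (31.8%) the 6 values at 3 µM lay wholly above or below the 6 at 1 µM. The median change over all genes was 0.03. With library totals in place of the authors' size factors it was -0.16, and the split turned to 3492 higher and 6823 lower, so small changes of either sign depend on the scaling.

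The fish moved alike. Within each fish the median step lay between 0.02 and 0.07, and the steps of each fish correlated with the mean step of the other fish at r = 0.845 to 0.884 across all genes tested, which are not independent replicates. The sign of the step was shared by 6 of 6 fish for 10352 genes (54.8%). The spread of the step over genes was also similar, with an SD of 0.702 to 0.784.

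Where each gene went was read against the control, in the same fit. At 1 µM 10779 genes differed from the control (57.0%; 29.8% higher, 27.3% lower), and at 3 µM 13441 did (71.1%; 36.0% higher, 35.1% lower). The 3 comparisons share libraries, so the classes that follow are counts and were not tested. Most of what the step did was to extend or to add: 3840 of the 9859 called genes (38.9%) went further in the direction they had taken at 1 µM, and 3435 (34.8%) were not called at 1 µM and were at 3 µM. The extended genes leaned upwards (2424 higher, 1416 lower) and the added genes downwards (1516 higher, 1919 lower). Which of these 2 classes was larger depended on the setting. Library totals gave 3914 added and 3564 extended genes, and added genes also led without fish 2, 3, 4 or 5. Without the 0.1 µM group the counts were 3336 added and 5011 extended. A smaller share moved against the response to 1 µM. It was partly removed in 576 genes (5.84%), removed in 1134 (11.5%), which were then not called against the control, and reversed in 385 (3.91%). The other 489 called genes (4.96%) differed from the control at neither concentration. Seen from 1 µM, 3840 of its 10779 genes (35.6%) went further, 2095 (19.4%) were set back and 4844 (44.9%) showed no called step. Genes raised at 1 µM were extended in 43.1% of cases and genes lowered at 1 µM in 27.5%.

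**Figure D1:**
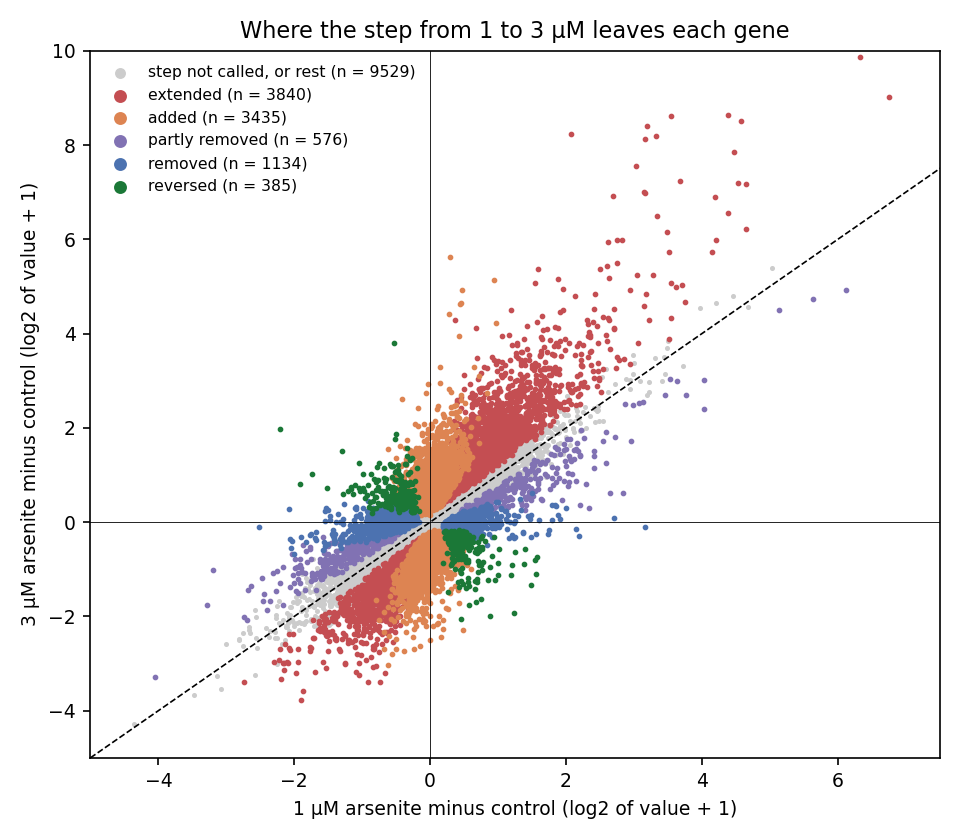
Each point is 1 of 18899 genes, with its log2 change from control at 1 µM arsenite on the x axis and at 3 µM on the y axis, and the dashed line marks no step between them. Colours give the classes of the step: the 3840 extended and 3435 added genes outnumber the 576 partly removed, 1134 removed and 385 reversed genes. Both axes share the control libraries.

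In a stricter form that asks for 2-fold changes, additions were the largest of the classes above, with 816 genes (472 higher, 344 lower). In this form an added gene is one within 0.5 of the control at 1 µM. Another 505 higher and 331 lower genes fell between the limits of the classes. Their median changes from control at 1 µM were 0.57 and -0.50, in the direction of the step. The lead of additions over extensions thus depends on these limits. Extension at this size was mostly upward, with 333 genes higher and 48 lower. Removal was seen in 100 genes (54 higher, 46 lower), partial removal in 15 and reversal in 9. With a pseudocount of 10 these counts were 543 added, 59 removed, 4 partly removed and 4 reversed. The 333 extended rises had a median change from control of 1.49 at 1 µM and 3.07 at 3 µM.

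Most heat shock and folding genes that changed rose. Of 27 heat shock and folding genes measured, 14 rose and 2 fell, with a median step of 0.52 against 0.03 for all genes. Gene lists were matched by symbol, and of the 6223 tested genes with a symbol 1527 were higher and 1652 lower (median -0.01). Among the 16 heat shock and folding genes that changed, 13 were extending a change already called at 1 µM. hs90a (GeneID 100380418), an HSP90 chaperone, had 1141 to 2609 normalised reads in the controls (median 1337), 24548 to 38760.5 at 1 µM (median 32230.0) and 128901 to 155375 at 3 µM (median 148431). The lowest fish at 3 µM stood above the highest at 1 µM, and the step was 2.17 ± 0.16 (limma adjusted p = 2.38e-10). bag3 (GeneID 100286445), a co-chaperone that hands HSP70 clients to autophagy, ran from 1729.7 to 4817 reads at 1 µM (median 2746) and from 23951 to 41968 at 3 µM (median 34673). Its groups did not overlap either, and its step of 3.57 ± 0.22 came close in size to its whole response to 1 µM (3.67 ± 0.22). hsp30 (GeneID 100195939), a small heat shock protein that holds unfolded clients, ran from 90.7 to 345 reads at 1 µM (median 184) and from 4149.8 to 9488 at 3 µM (median 6047). The control fish spread widely in hsp30, from 2.301 to 124 reads, and closed up at 3 µM.

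Co-chaperones of the J-domain family, which deliver clients to HSP70, did not move as one. dnaja (GeneID 106584850) rose by 3.54 ± 0.14 at 1 µM and by a further 1.52 ± 0.14. dnajb5 (GeneID 106585014) had 16.6 to 24.3 reads in the controls (median 18.9), 18.1 to 36.0 at 1 µM (median 27.03) and 220.0 to 422 at 3 µM (median 316). Control and 1 µM fish overlapped, while all 3 µM fish were far above both (step 3.51 ± 0.22, limma adjusted p = 3.04e-11). Against this, the constitutive HSP70 gene hspa8 was not called (0.13 ± 0.08, adjusted p = 0.2), nor was any of the measured subunits cct2, cct4, cct5, cct7 and cct8 of the cytosolic chaperonin, although tcp1, another subunit, rose (0.55 ± 0.18). The 2 falls were dnaja3a (-0.88 ± 0.12), a mitochondrial J-domain protein, and stub1 (-0.30 ± 0.08), the ubiquitin ligase that works with HSP70.

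With the authors' size factors, more ubiquitin and proteasome genes rose than fell. ubb (GeneID 106567983), a polyubiquitin gene, had 5253 to 10585 reads at 1 µM (median 6896) and 34856 to 41188 at 3 µM (median 39371), without overlap. Its step of 2.50 ± 0.10 was larger than its change from control to 1 µM (0.80 ± 0.10). Of the 21 proteasome and ubiquitin genes, 9 rose and 3 fell (median 0.23), and 9 of the 12 extended a change at 1 µM. Apart from ubb and zfand5b (1.56 ± 0.09), a zinc finger protein that binds ubiquitin and the proteasome, the rises were between 0.23 and 0.56. The falls included the proteasome genes psmd5 and psma4. psmd5 went from 182 to 254 reads at 1 µM to 125 to 159 at 3 µM, and psma4 from 264 to 308 to 202 to 250. With library totals 3 of the 21 were higher and 5 lower, and without fish 5 the count of rises was 6. The autophagy receptor sqstm1 (p62), which binds ubiquitin, rose by 0.56 ± 0.13 from a median of 150152 to 223885 reads. Of the 24 core autophagy genes 3 rose and 7 fell (median -0.05), beside 27.8% and 24.4% of all genes tested. With library totals 2 were higher and 10 lower. The lowest were atg10 (-1.18 ± 0.17) and atg2a (-0.66 ± 0.08), and the kinase ulk1a was highest (0.81 ± 0.15). atg10 had few reads, 18.6 to 33.6 at 1 µM and 7.54 to 16.7 at 3 µM. The 5 genes with a symbol that gained most reads in the step, hs90a, sqstm1, dnaja, ubb and bag3, together took 0.316% ± 0.0774 (SD, n = 6) of each control library, 2.01% ± 0.293 at 1 µM and 4.08% ± 0.230 at 3 µM.

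In the unfolded protein response more genes rose than fell. Of the 29 measured genes of ER stress and the ATF4 arm, 14 were higher and 3 lower (median 0.25). The shares over all genes tested were 27.8% higher and 24.4% lower. With library totals 10 of the 29 were higher and 6 lower (median 0.06). The count of lower genes among the 29 ran from 0 without fish 3 to 4 without fish 1. Of those called, 8 extended a change seen at 1 µM and 5 were added. xbp1 (GeneID 100846957), the transcription factor whose messenger is spliced by the ER sensor IRE1, had 2302 to 2946 reads in the controls (median 2494), 2489 to 3413 at 1 µM (median 2794) and 9823 to 12241 at 3 µM (median 10862). It was not called at 1 µM (0.19 ± 0.09, limma adjusted p = 0.0961), and its 3 µM fish stood clear of all others (step 1.92 ± 0.09). The ER chaperones hsp90b1 (0.61 ± 0.23), dnajc3a (0.53 ± 0.13) and sdf2l1 (1.18 ± 0.15) and the sensor kinase eif2ak3 (PERK, 0.96 ± 0.12) rose as well. In the ATF4 arm, sesn2 (1.49 ± 0.23), a stress-induced inhibitor of growth signalling, ddit3 (1.19 ± 0.08), the pro-apoptotic factor CHOP, and chac1 (0.95 ± 0.13), which degrades glutathione, went further up. Not every member followed: atf4 itself (0.11 ± 0.10, adjusted p = 0.374) and the amino acid enzyme asns (-0.02 ± 0.06, adjusted p = 0.777) were not called, and atf3 stepped back by 0.41 ± 0.13 from a rise of 1.07 ± 0.13. The call of atf3 was lost without fish 3 (adjusted p = 0.0607). ern1, which encodes IRE1, fell at both concentrations. It had 273 to 363 reads in the controls, 163 to 188 at 1 µM and 120 to 174 at 3 µM. The call of the ern1 step was lost without fish 2, 3, 4 or 5 (limma adjusted p between 0.0541 and 0.0628). Of 14 aminoacyl-tRNA synthetase genes 3 rose and none fell, both below the shares over all genes tested (27.8% and 24.4%). The highest was cars1 (0.40 ± 0.12), and with library totals 0 of the 14 were higher and 2 lower.

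**Figure D2:**
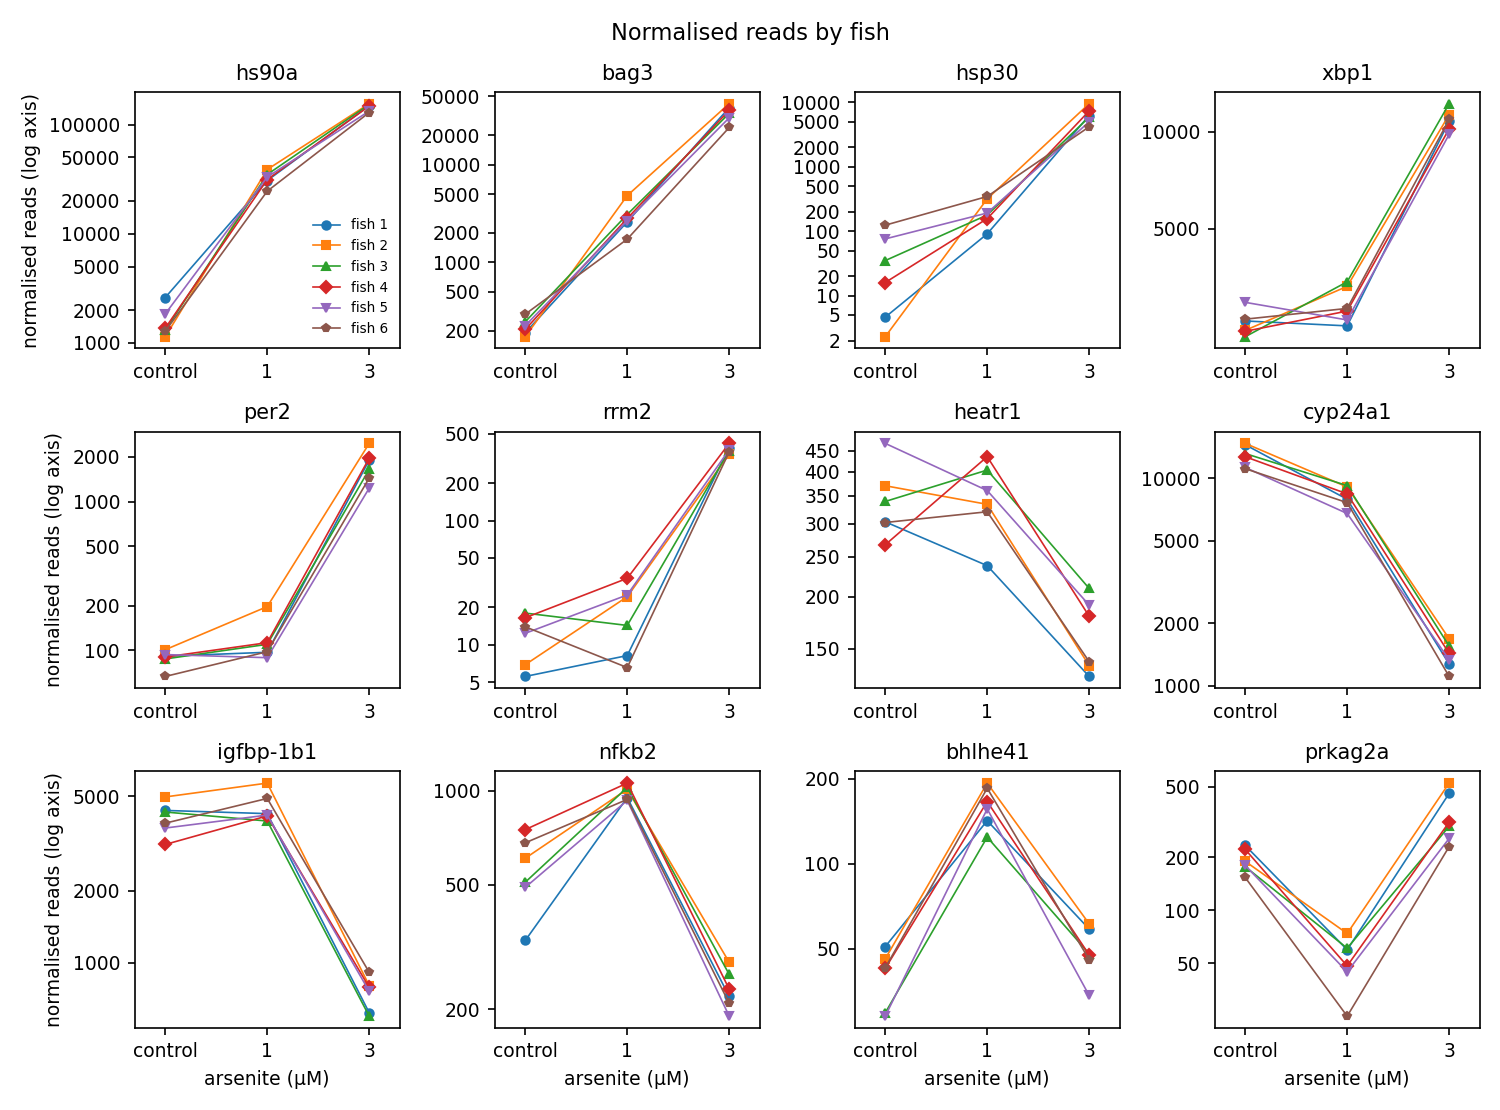
Normalised reads (log axis) of 12 genes in the control, 1 µM and 3 µM arsenite libraries, with 1 line and marker per fish (n = 6). hs90a, bag3 and hsp30 climb at both steps. xbp1, per2 and rrm2 climb mainly at the last, and heatr1 and igfbp-1b1 fall at the last. nfkb2 and bhlhe41 peak at 1 µM, and prkag2a has a trough there.

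Of 25 NRF2 and oxidative stress genes 6 rose and 7 fell (median -0.11), shares close to those among all genes tested (27.8% higher, 24.4% lower). Of these 13, 6 had their response to 1 µM partly removed. gclc (GeneID 100196780), which starts glutathione synthesis, fell from 2611 to 3634 reads at 1 µM (median 3107) to between 1526 and 2067 at 3 µM (median 1774). It stayed above the controls, whose highest fish had 968 reads. The NADPH enzyme pgd (-0.63 ± 0.12), the NRF2 repressor keap1a (-0.47 ± 0.11), glutathione reductase gsr (-0.29 ± 0.12) and sulfiredoxin srxn1 (-0.58 ± 0.18) fell too. Rises were seen in the NRF2-partner gene maff (1.08 ± 0.10), thioredoxin txnb (0.73 ± 0.15), nfe2l2a, which encodes NRF2 (0.53 ± 0.11), and its repressor bach1b (0.56 ± 0.15). Catalase, superoxide dismutases sod1 and sod2 and peroxidase gpx4a were not called. With library totals 4 genes were higher and 14 lower, and without fish 4 the falls numbered 4.

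Among 11 genes of arsenic handling, 3 rose and 2 fell (median 0.11), beside 27.8% and 24.4% of all genes tested. But with library totals 2 were higher and 5 lower (median -0.08). abcc3 (GeneID 106589510), an exporter of organic anions, went from 198 to 353 reads at 1 µM (median 252) to between 114 and 176 at 3 µM (median 141). The groups did not overlap, and both were far above the controls, none of which exceeded 11.6 reads. Its fall of 0.90 ± 0.31 (limma adjusted p = 0.0194) was not called without fish 4 (adjusted p = 0.0654) or fish 5 (0.0627). The transferase gsto1, which reduces pentavalent arsenic, fell from 2882 to 3157 reads (median 2919) to 1954 to 2412 (median 2155), a step of -0.45 ± 0.14. as3mt, the arsenite methyltransferase, did not show a called step: it had 326 to 398 reads at 1 µM and 352 to 424 at 3 µM, with overlap (0.11 ± 0.11, adjusted p = 0.376; -0.08 with library totals). Those that rose were mat2aa, which makes the methyl donor S-adenosylmethionine (0.75 ± 0.16), the glutathione transferase gstr (0.56 ± 0.07) and pnp4b (0.30 ± 0.11), of the purine nucleoside phosphorylase family. Of 17 genes of metal binding and transport, 6 fell, 1 rose and 10 were not called. hamp, encoding the iron hormone hepcidin, fell without overlap from 10353 to 15666 reads (median 13304) to 5305 to 7641 (median 6824), a step of -0.98 ± 0.19 in a gene not called at 1 µM. The zinc transporter slc39a14 fell (-0.77 ± 0.18) and slc39a8 rose (0.40 ± 0.08). Metallothionein mt2 was not called (-0.46 ± 0.30, adjusted p = 0.208).

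**Figure D3:**
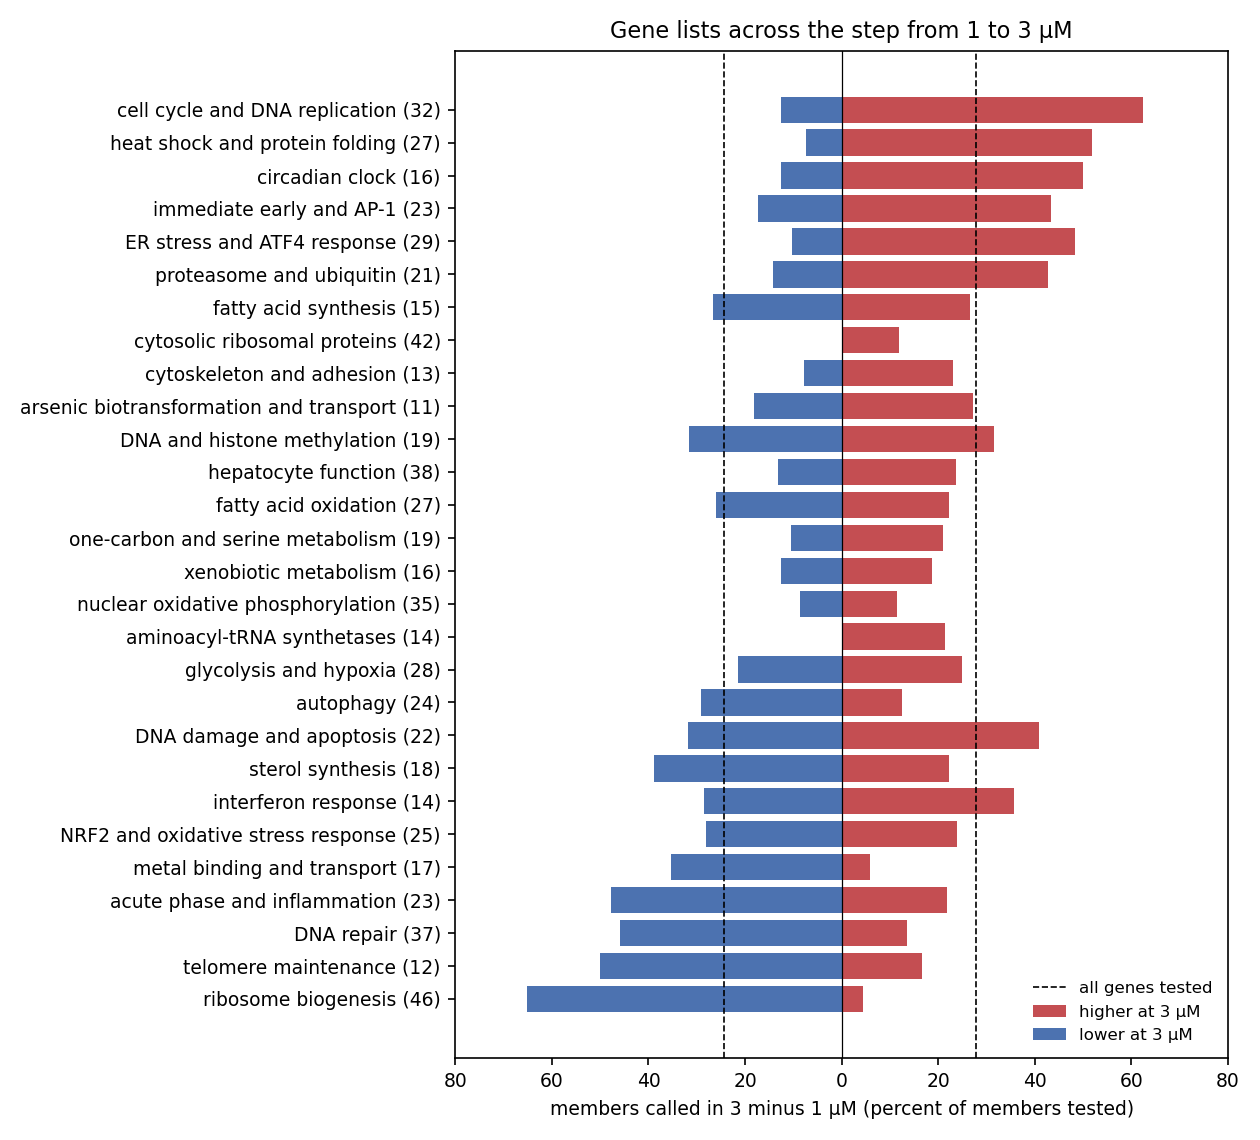
Share of each gene list's measured members (number in parentheses) that were called higher (red) or lower (blue) at 3 µM than at 1 µM arsenite, in percent, ordered by the list's median change. The dashed lines mark the shares among all 18899 genes tested (27.8% higher, 24.4% lower). List members were matched by symbol, and of the 6223 tested genes with a symbol 1527 were higher and 1652 lower. Cell cycle and heat shock genes reach furthest to the right, ribosome biogenesis genes to the left.

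Of the 28 pathway lists, ribosome biogenesis had the largest share of falls. Over all genes tested 24.4% were lower and 27.8% higher. Of 46 measured factors that make ribosomal RNA and assemble ribosomes, 30 fell and 2 rose (median -0.47), and 18 of the 32 were added by the step. At 1 µM the median of this list lay at 0.00 from the control. heatr1 (GeneID 106589357), a factor needed for ribosomal RNA transcription and processing, had 267 to 468 reads in the controls (median 321), 238 to 435 at 1 µM (median 347) and 129 to 209.6 at 3 µM (median 159.7). Control and 1 µM fish intermingled, and every 3 µM fish lay below both (step -1.08 ± 0.17, limma adjusted p = 1.16e-05). The largest fall was in polr1b (-1.11 ± 0.18), which with polr1a (-0.92 ± 0.15) forms the catalytic core of RNA polymerase I. nop56, a core protein of the particles that methylate ribosomal RNA, fell from 1183 to 1563 reads (median 1480.0) to 623 to 859 (median 775). The proteins of the pseudouridylation particle, nhp2 (-1.02 ± 0.13), dkc1 (-0.95 ± 0.12) and gar1 (-0.67 ± 0.15), fell as a continuation of a fall at 1 µM. nolc1 (0.40 ± 0.09) and utp15 (0.35 ± 0.09) rose, and neither was called with library totals (0 of 46 higher, 39 lower). Leaving out any 1 fish left 25 to 36 falls. Among the genes of the cytosolic ribosomal proteins themselves, 5 of 42 rose and none was called lower (median 0.13). Both shares were below those over all genes tested. With library totals that median was -0.06, with 0 higher and 2 lower, and with the 12 libraries compared alone the counts were 27 higher and 1 lower.

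**Figure D4:**
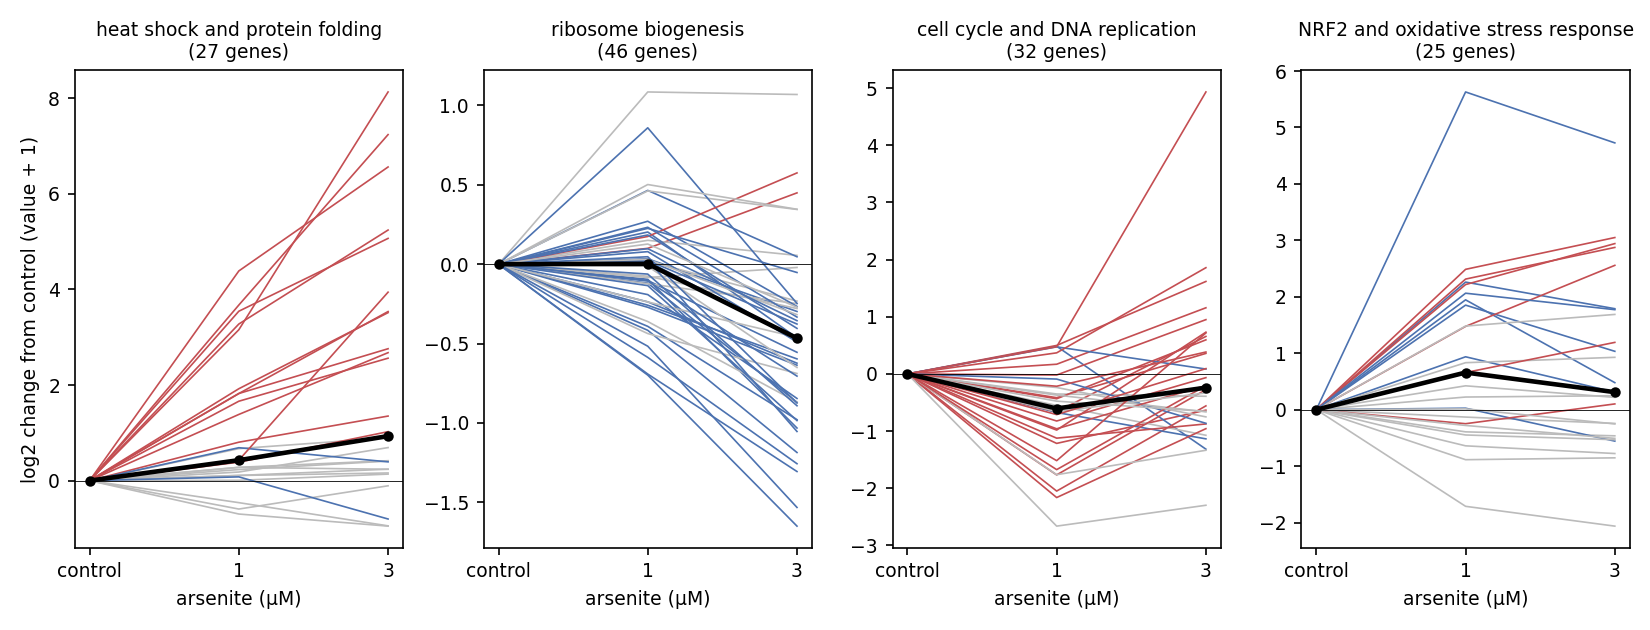
Log2 change from control (value + 1) of each member of 4 gene lists at 1 and 3 µM arsenite, each panel with its own scale. Lines are red where the step from 1 to 3 µM was called higher, blue where lower and grey where not called, and the black line is the list median. Heat shock genes fan upwards, the ribosome biogenesis median stays at 0.00 at 1 µM and drops to -0.47 at 3 µM, and many cell cycle genes rise from a trough at 1 µM.

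Cell cycle genes turned upwards from a trough. At 1 µM the 32 measured genes had a median of -0.60 from the control. In the step 20 rose and 4 fell (median 0.76), beside 27.8% and 24.4% of all genes tested. At 3 µM the list median was -0.24 from the control. Of the 24 that changed, 3 had their response partly removed, 7 removed and 4 reversed. mki67 (GeneID 100196380), a proliferation marker, had 33.8 to 61.0 reads in the controls (median 46.5), 7.05 to 18.6 at 1 µM (median 15.03) and 30.6 to 51.5 at 3 µM (median 35.8). The 3 µM fish stood above all 1 µM fish and among the controls (step 1.49 ± 0.21, limma adjusted p = 4.58e-06). The DNA untangling enzyme top2a went from a median of 12.1 to 25.9 reads (1.21 ± 0.16) and remained below the control median of 55.6. cenpf, of the kinetochore, went from 5.59 to 11.4 reads (median 9.19) to 26.3 to 63.1 (median 45.2; step 2.23 ± 0.28). These mitotic genes had few reads in all 3 groups. rrm2 (GeneID 106607664), the small subunit of ribonucleotide reductase, had 5.55 to 17.98 reads in the controls (median 13.1), 6.54 to 34.2 reads at 1 µM (median 19.3) and 343 to 419 at 3 µM (median 369.7). The 3 µM fish were close to each other and far above the rest. dhfr (1.12 ± 0.16), tk1 (0.99 ± 0.25) and tyms (0.97 ± 0.18), which make thymidylate or its precursors, rose as well. Falls were seen in ccnd2 (-1.80 ± 0.13), a cyclin of early cell cycle entry, and bub3 (-0.77 ± 0.17), of the spindle checkpoint.

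Of 22 DNA damage genes 9 rose and 7 fell, and of 37 DNA repair genes 5 rose, 17 fell and 15 were not called (median -0.29). The shares over all genes tested were 27.8% higher and 24.4% lower. Among the targets of p53, cdkn1a (1.18 ± 0.23), which halts the cell cycle, btg2 (1.91 ± 0.13) and rrm2b (1.03 ± 0.23), a second small subunit of ribonucleotide reductase, rose. The pro-apoptotic bbc3, another target of p53, fell (-0.91 ± 0.23). The executioner casp3a fell too (-1.86 ± 0.22), with few reads (16.7 to 36.0 at 1 µM, 2.83 to 9.75 at 3 µM). So did the p53 inhibitor mdm4 (-1.16 ± 0.17). Among repair genes, ercc4, the nuclease of nucleotide excision, fell most (-2.76 ± 0.22). It went from 41.1 to 58.8 reads at 1 µM to 2.92 to 12.1 at 3 µM, so the size of its fall rests on few reads. The double-strand break genes nbn (-0.74 ± 0.20), rad50 (-0.68 ± 0.19) and mre11a (-0.44 ± 0.14), which form 1 complex, all fell. The damage sensor xpc (1.82 ± 0.26) and the recombination gene xrcc3 (1.43 ± 0.17) rose. Leaving out any 1 fish left 14 to 20 falls. Of 12 telomere genes 6 fell and 2 rose (7 and 1 with library totals), and 3 of the falls (nhp2, dkc1 and gar1) were the ones already counted with ribosome biogenesis. terf1 (GeneID 106579730), a protein that coats telomere repeats, had 15.8 to 27.2 reads in the controls, 5.45 to 21.4 at 1 µM (median 13.9) and 218 to 541 at 3 µM (median 261). Telomerase itself, tert, fell by 0.80 ± 0.21.

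In the immediate early and AP-1 list 10 of 23 genes rose and 4 fell, beside 27.8% and 24.4% of all genes tested. The other 9 were not called, and the list median was 0.38. Of the 14 that changed, 4 were added and 6 extended, and the others moved against their response to 1 µM. jun, an AP-1 subunit, was not called at 1 µM (0.02 ± 0.17, adjusted p = 0.911) and rose by 1.79 ± 0.17 in the step. fosl1a, its partner, rose by 2.07 ± 0.23 on top of 1.33 ± 0.23, and csrnp1b (GeneID 106590691) went from 195 to 473 reads (median 272) to 1947 to 4980.2 (median 3000.5). myc, a driver of growth and ribosome synthesis, fell by 0.92 ± 0.12 after a rise of 0.69 ± 0.12, and klf2a fell by 1.06 ± 0.11.

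Clock genes moved in the same direction in most called cases, with 8 of 16 higher and 2 lower (median 0.42). Over all genes tested 27.8% were higher and 24.4% lower. per2 (GeneID 100301980), a repressor of the clock, had 66.9 to 101 reads in the controls (median 91.0), 89.5 to 197 at 1 µM (median 104) and 1231 to 2460.4 at 3 µM (median 1773). The 3 µM fish were all far above the others, and fish 2 was highest in every group (step 3.92 ± 0.15, limma adjusted p = 2.72e-14). npas2 (1.34 ± 0.23) and arntl1a (0.76 ± 0.11), activators of the clock, also rose. bhlhe41, a repressor of clock genes, went the opposite way: from 28.8 to 50.9 reads in the controls to 124 to 193 at 1 µM and back to 34.1 to 61.3 at 3 µM. Its rise at 1 µM (2.00 ± 0.14) was thus removed (-1.70 ± 0.14). The labels do not state the time of day of sampling.

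Some genes linked to NF-κB, which switches on inflammation, peaked at 1 µM, while other inflammation genes rose in the step, and no list of this pathway was counted. nfkb2 (GeneID 100380298), the precursor of an NF-κB subunit, had 332 to 751 reads in the controls (median 559), 931 to 1058 at 1 µM (median 981) and 190.1 to 283 at 3 µM (median 226). The 3 groups did not overlap, so the response was reversed (step -2.09 ± 0.19, limma adjusted p = 7.58e-09). tnr5 (GeneID 100196207), a receptor of the tumour necrosis factor family, ran from 748 to 946 reads at 1 µM and from 157 to 187 at 3 µM, below the control range of 202 to 345.7. The interleukin receptor-like gene il-1rl did the same (1.01 ± 0.12, then -2.12 ± 0.12). traf3, an adaptor that restrains NF-κB, went from a control median of 65.5 to 209.9 and back to 54.6 reads, and the inhibitors nfkbiab (-1.07 ± 0.13) and tnfaip3 (-0.69 ± 0.11) stepped down too. Of the whole acute phase and inflammation list, 5 of 23 rose and 11 fell (median -0.23). The rises were in ptgs2b, the inducible prostaglandin synthase (2.52 ± 0.36), the receptor adaptor myd88 (2.06 ± 0.18), the chemokine il8 (1.17 ± 0.30), crp (1.06 ± 0.13) and haptoglobin, hp (0.35 ± 0.10). Leaving out any 1 fish left 5 rises and 8 to 11 falls. With library totals 4 of the 23 rose and 13 fell (median -0.42). With the 12 libraries compared alone, 8 of 22 rose and 10 fell (median -0.13). Of 14 interferon genes 5 were higher and 4 lower, beside 27.8% and 24.4% of all genes tested. They were led by isg15 (1.66 ± 0.13) and cmpk2 (-0.83 ± 0.17). With library totals 2 interferon genes were higher and 7 lower (median -0.30).

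Other reversals were seen outside these lists. prkag2a (GeneID 106579597), a regulatory subunit of the energy sensor AMPK, had 153 to 233 reads in the controls, 25.1 to 73.8 at 1 µM (median 54.01) and 229 to 526 at 3 µM (median 308). Each fish fell at 1 µM and ended above its own control, with a step of 2.72 ± 0.17. The growth factor receptor fgfr3 (-0.55 ± 0.22, then 1.73 ± 0.22) and phop1 (-0.58 ± 0.21, then 1.78 ± 0.21) showed the same order, and the transcription factor mafa the opposite one (1.58 ± 0.17, then -2.31 ± 0.17). Falls at 1 µM were removed in mfsd2ab (1.80 ± 0.18), a transporter of lysophosphatidylcholine, nipal4 (1.20 ± 0.17) and tp53inp2b (1.64 ± 0.24), an autophagy factor. The rise of patz1, a zinc finger transcription factor, was mostly taken back (1.63 ± 0.12, then -1.15 ± 0.12).

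The largest falls included hormone-related enzymes and binding proteins. igfbp-1b1 (GeneID 100136518), which binds insulin-like growth factors, had 3940.1 to 5690.3 reads at 1 µM (median 4203), a range overlapping the controls, and 594 to 909 at 3 µM (median 771). cyp24a1 (GeneID 106583685), which inactivates vitamin D, went from 11131 to 14737 reads in the controls to 6771 to 9225 at 1 µM and 1111 to 1687 at 3 µM. The 3 ranges did not overlap, and most of the fall came in the step (-2.55 ± 0.09 against -0.66 ± 0.09 before it). dio3b, which inactivates thyroid hormone, followed the same course (-0.84 ± 0.17, then -2.23 ± 0.17). The adhesion gene icam3 was not called at 1 µM (0.23 ± 0.21) and fell in the step (-2.05 ± 0.21). Genes lowered at least 2-fold by 1 µM and again by the step included txnip, which binds thioredoxin (-1.10 ± 0.15, then -1.55 ± 0.15), the epithelial transcription factor elf3 (-1.57 ± 0.19, then -1.40 ± 0.19) and apolipoprotein E, apoeb (-1.50 ± 0.18, then -1.23 ± 0.18).

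Among the largest rises not covered so far, aox5, an aldehyde oxidase, ran from 44.7 to 213 reads at 1 µM (median 121) and from 1206 to 2532 at 3 µM (median 1651). It had at most 6.38 reads in a control library. naalad2, a membrane peptidase, ran from 16.3 to 58.9 and then from 415 to 811 reads, jakmip1 from 14.9 to 21.1 and then from 191 to 482, and cnrg from 4.09 to 33.8 and then from 162 to 384. None of these 3 was called at 1 µM, and in none did the 1 and 3 µM fish overlap. Their steps were 4.19 ± 0.37, 4.13 ± 0.33 and 4.19 ± 0.47.

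In the fit of all 24 arsenite libraries, most hepatocyte genes showed no called step. Of 38 genes of hepatocyte function 9 rose, 5 fell and 24 were not called (median 0.09), while 27.8% of all genes tested rose and 24.4% fell. With library totals 4 of the 38 rose and 7 fell (median -0.11). With the 12 libraries compared alone 14 rose and 5 fell, and without the 0.1 µM library of fish 1 the counts were 13 and 5. At 1 µM the list had a median of -0.42 from the control, and at 3 µM of -0.31. The liver transcription factor cebpa rose by 1.21 ± 0.09 after a smaller fall at 1 µM (-0.89 ± 0.09). The bile acid receptor nr1h4 rose (0.74 ± 0.24), and tryptophan dioxygenase tdo2a fell (-1.21 ± 0.11). The nr1h4 step was not called without fish 2 or fish 3 (limma adjusted p = 0.0565 and 0.0542). The count of rises ran from 6 without fish 4 or fish 5 to 13 without fish 1. Transferrin, tfa, lost the most reads among genes with a symbol, from 169326 to 251518 (median 218112) to 159764 to 205441 (median 179152), but its groups overlapped and it was not called (-0.25 ± 0.12, adjusted p = 0.0901). It fell in 6 of 6 fish. It was called with the 12 libraries alone (limma adjusted p = 0.00187) and with library totals (-0.449, limma adjusted p = 0.000299). The call was also made without the 0.1 µM library of fish 1 (limma adjusted p = 0.0365) and without the 0.1 µM group (0.0157). edgeR (adjusted p = 0.0353) and DESeq2 (adjusted p = 0.01998) called tfa too. The other alternatives tried left tfa not called. Stearoyl-CoA desaturase, scdb, fell further (-0.55 ± 0.11 after -0.60 ± 0.11).

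The metabolic lists held calls in both directions, many at shares near or below those of all genes tested (27.8% higher, 24.4% lower). Sterol synthesis had 4 of 18 higher and 7 lower, fatty acid synthesis 4 of 15 and 4, fatty acid oxidation 6 of 27 and 7, and xenobiotic metabolism 3 of 16 and 2. One-carbon and serine metabolism had 4 of 19 higher and 2 lower, glycolysis and hypoxia 7 of 28 and 6, oxidative phosphorylation 4 of 35 and 3, DNA and histone methylation 6 of 19 and 6, and cytoskeleton and adhesion 3 of 13 and 1. Their medians lay between -0.07 and 0.15. The balance depended on the scaling: with library totals fatty acid oxidation had 2 higher and 9 lower, glycolysis and hypoxia 3 and 9, oxidative phosphorylation 2 and 8, fatty acid synthesis 3 and 5, xenobiotic metabolism 2 and 5, one-carbon and serine metabolism 4 and 5, and cytoskeleton and adhesion 2 and 2. In sterol synthesis, the regulators insig1 (-0.60 ± 0.16) and insig2 (-0.80 ± 0.12) fell while srebf2 (0.53 ± 0.11) and hmgcs1 (0.63 ± 0.15) rose. In fatty acid oxidation, the gate enzyme cpt1ab rose (1.19 ± 0.16) and the thioesterase acot8 fell (-0.77 ± 0.15). In xenobiotic metabolism the epoxide hydrolase ephx1 fell by 1.58 ± 0.18 after a rise of 1.23 ± 0.18, and in one-carbon metabolism the mitochondrial folate enzyme mthfd2 rose (1.12 ± 0.13).

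Markers of hepatocytes and of other liver cells were read beside these results, and in bulk RNA fewer cells of a type and less RNA per cell cannot be told apart. The summed level of 8 measured hepatocyte markers was 324736 to 475969 normalised reads at 1 µM and 334587 to 423816 at 3 µM, with overlap. In the controls it was higher, at 485441 to 607924. Most of this sum came from tfa (169326 to 251518 reads at 1 µM) and fgg (91908 to 130270). Of the 8 markers 1 rose (rbp4) and 1 fell (pck1). The fall of pck1 came from fish 1 (-1.41) and fish 6 (-1.29), and the other fish had steps between -0.10 and 0.01. The 3 endothelial markers summed to 259.9 to 345.6 at 1 µM and 421 to 563 at 3 µM: esamb rose (0.76 ± 0.09), stab1 fell (-0.51 ± 0.20, not called without fish 1, 2, 4, 5 or 6, adjusted p between 0.0596 and 0.123) and kdr was not called. The 4 stellate and fibroblast markers summed to 1005 to 1499 and 1647 to 2148, with timp2 (0.64 ± 0.12) and timp2a (0.72 ± 0.17) higher, fn1a lower (-2.09 ± 0.21) and acta2 not called. The 3 macrophage and granulocyte markers summed to 1787 to 2386 and 1469 to 1935, with mpeg1.1 higher (0.95 ± 0.21), cd68 lower (-0.38 ± 0.12) and lyz not called. A single gene made up most of each of the endothelial, stellate and macrophage sums. At 1 µM esamb had 237 to 319 reads, timp2 899 to 1265 and cd68 1700 to 2355. Both cholangiocyte markers rose, jag1b (1.17 ± 0.13) and anxa4 (0.34 ± 0.10; 0.14, adjusted p = 0.195, with library totals). The erythrocyte marker rhag was not called, and no listed lymphocyte marker was found by symbol. Lymphocyte genes among the 12676 genes with a locus name only could not be matched this way. In none of the 3 lists with more than 2 markers of another cell type did all members move one way, and the part of other cell types in the inflammation and other results was not tested.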

How the data were processed

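Per the labels, RNA of cultured salmon hepatocytes was sequenced. The deposited signal covers 18901 genes. The submitters' processing notes name DESeq2 1.40.2, HISAT2, Subread and its featureCounts as tools. Genome build, annotation and strand setting: not given in the sources used here. That the signal is read counts divided by a size factor per library was tested on the values: in the 24 arsenite libraries 100% of values came out as whole reads within a tolerance of 0.1 reads. Recovered counts gave the depth (8.79 to 24.0 M reads per library) and served edgeR and DESeq2. Gene symbols came from a RefSeq gene table matched by GeneID (18900 of 18901 matched, 6224 with a symbol). Promoter sequences were not used here. The values of 1 list member are not reported here.

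Values were taken as log2(value + 1), for genes with at least 10 in at least 6 of the 24 arsenite libraries, and fitted with limma 3.58.1 (mean trend) in R 4.3.3 with group and fish as terms. Tests were two-sided with Benjamini-Hochberg adjustment over 18899 genes, and the fit was tested on simulated data. Fish numbers come from the labels, which state that cells of each fish were divided. Same-fish libraries correlated after removal of group means (r across genes 0.177 to 0.424, median 0.290) more than libraries of other fish (median -0.0746), and 6 of 6 fish matched their own number best. Removing group means itself tends to make the other-fish value negative where the same-fish value is positive, so its sign is no separate measure. Alternatives were other scalings (library totals, TMM), pseudocounts of 0.5 and 10, a filter of 50 or none, only the 12 libraries compared, no fish term, leaving out each fish, edgeR 4.0.16 quasi-likelihood and DESeq2 1.42.0. Fits without the library of fish 1 at 0.1 µM, and without the 0.1 µM group, were chosen after seeing the data.

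The comparison, the gene lists and the rules were chosen with earlier results of these data known. Named genes were the 10 largest rises and falls among called genes with a symbol, moving alike in 6 of 6 fish and with a group mean of at least 100, the 4 largest of each class and direction, the 5 genes that gained and the 5 that lost most reads, 2 members per list and direction, and called cell type markers. Further list members were picked after their values were seen.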

Additional observations from a re-analysis of the deposited data

Results flagged for a closer look

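In 94 groups of 6 libraries (47 genes at 1 and at 3 µM), 3 had a library far from the other 5 on the log scale by Dixon's test, and chance flags about 1 in 20. At 1 µM the highest per2 value, 197.1 normalised reads in fish 2, stood apart from the other 5. At 3 µM the highest tp53inp2b value was 1604.0 in fish 1, and the lowest ubb value was 34855.5 in fish 5. The steps of per2, tp53inp2b and ubb were called with each fish left out in turn.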

How the results depend on the processing

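Each of the 138 genes chosen by the naming rule kept the direction of its step under the alternatives tried, except as3mt, which was not called and went to -0.079 with library totals. Library totals gave 3492 higher and 6823 lower genes in place of 5247 and 4612, and turned the sign of the median of 12 of 28 pathway lists, including cytosolic ribosomal proteins and hepatocyte function. Without the fish block (no pairing) 8855 genes were called, 8837 of them shared with the 9859, and the named genes atf3, lpin1a, nr1h4, ndufa9a, cars1, aars1, dmgdh and stab1 lost their call. Leaving out each fish gave 8684 to 10854 called genes, with 416 to 869 partly removed and 265 to 521 reversed. Partly removed genes numbered 925 and reversed genes 609 without the 0.1 µM library of fish 1, and 999 and 654 without the 0.1 µM group, in place of 576 and 385. In the 2-fold form, a pseudocount of 10 gave 543 added, 59 removed, 4 partly removed and 4 reversed genes in place of 816, 100, 15 and 9, and a filter of 50 gave 58 removed and 8 partly removed. The cause was not tested. The 12 libraries alone gave 12011 called genes, edgeR 9908 and DESeq2 9984. Depth limits genes with few reads, such as the mitotic genes, ercc4, casp3a and atg10.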
